A study of Bos taurus with 9 samples.

Results

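The genes described here are 10 markers that separate epithelial from stromal (mesenchymal) cells, taken by symbol from a table of 30641 genes. They are the keratins KRT7, KRT8, KRT18 and KRT19, the surface protein EPCAM and E-cadherin (CDH1) on the epithelial side, and N-cadherin (CDH2), vimentin (VIM), smooth muscle alpha-actin (ACTA2) and fibronectin (FN1) on the mesenchymal side. All 10 were in the table, and 9 of them had enough counts to be tested. EPCAM did not. They were read in 9 RNA sequencing libraries of a bovine culture that the labels call endometrial epithelial, 3 in each of 3 groups. Untreated cells (the control) were grown in a commercial bovine endometrial medium and received nothing else. The jetMESSENGER-only cells (marked as reagent alone in the plots) were exposed to that transfection reagent 24 hours after seeding. The cells named here DPPA3 mRNA received, also 24 hours after seeding, jetMESSENGER carrying 500 ng of DPPA3 mRNA. No group received another mRNA. The labels do not give the animals, passages or cultures behind the replicates, so the p-values cover the spread among these 9 libraries only, which may be technical.

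Epithelial cells are held together by E-cadherin junctions and carry keratin filaments, which assemble from pairs of a type II keratin (KRT7, KRT8) and a type I keratin (KRT18, KRT19). Mesenchymal cells such as fibroblasts use vimentin filaments and N-cadherin, secrete fibronectin, and make ACTA2 when they turn contractile. In the epithelial-mesenchymal transition a cell lowers the first set and raises the second, under transcription factors of the SNAI, TWIST and ZEB families. Epithelial cells in culture often carry vimentin and fibronectin beside their keratins, and mesothelial cells, which line body cavities, carry simple keratins, vimentin and WT1 together.

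Total counts ranged from 3890134 in jetMESSENGER-only replicate 1 to 13258036 in DPPA3 mRNA replicate 1. DPPA3, the transfected transcript, had 126334 to 213790 counts in the transfected libraries and 0 to 2 elsewhere, as the labels say. Levels below are CPM, the usual unit of read counts divided by the library total, here scaled with TMM factors. A count of 0 allows up to 3 counts, which is 0.226 to 0.746 CPM depending on the library. Levels are not corrected for transcript length, so a gene's level is compared between libraries, and the order of levels among genes is not interpreted. Lists are described by how many of their genes were tested or reached a mean of 5 CPM, a mark that long transcripts reach more easily. In bulk RNA, fewer cells of a type and less RNA per cell cannot be told apart.

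The 4 simple keratins were present in every library. KRT8 measured 4988, 4028 and 4318 CPM in untreated replicates 1, 2 and 3. It measured 4323, 3797 and 4065 CPM with jetMESSENGER only and 4506, 4014 and 4248 CPM with DPPA3 mRNA, and all 3 groups overlapped. It took 0.385% to 0.451% of all counts in a library. By this share KRT8 was lower in untreated replicate 1 (0.427%) than in DPPA3 mRNA replicate 1 (0.451%) and jetMESSENGER-only replicate 1 (0.447%). KRT18, its usual partner, measured 2597, 1706 and 1626 CPM in untreated replicates 1 to 3, 1597, 1690 and 1562 CPM with jetMESSENGER only, and 2130, 1749 and 1682 CPM with DPPA3 mRNA. Untreated replicate 1 stood above the other 8 libraries for KRT18, and DPPA3 mRNA replicate 1 came next. The ratio of KRT8 to KRT18 counts was 1.92 and 2.12 in those 2 libraries and 2.25 to 2.71 in the other 7.

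KRT19, a small type I keratin of simple epithelia, had the tightest untreated values of the tested epithelial markers, at 2827, 2667 and 2868 CPM in untreated replicates 1 to 3. It measured 2193, 2600 and 2762 CPM with jetMESSENGER only and 2593, 2498 and 2769 CPM with DPPA3 mRNA. The lowest value was that of the shallow jetMESSENGER-only replicate 1, and the groups overlapped. KRT7, a type II keratin of glands and ducts, measured 574, 461 and 512 CPM in untreated replicates 1 to 3, 421, 463 and 485 CPM with jetMESSENGER only, and 495, 459 and 504 CPM with DPPA3 mRNA. Within a group the SD of KRT7 was 4.91% to 10.9% of the mean.

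EPCAM, an adhesion protein of most simple epithelia, was at the edge of detection. The untreated libraries held 4, 5 and 8 counts in replicates 1 to 3, the jetMESSENGER-only libraries 1, 8 and 0, and the DPPA3 mRNA libraries 5, 4 and 2. The levels were 0.64, 0.54 and 0.78 CPM in the untreated libraries, and 0.38, 0.36 and 0.17 CPM with DPPA3 mRNA, so these 2 groups did not overlap. This was the case in this direction for 3.86% of the genes tested, a set of better detected genes that leaves EPCAM out. A two-sided exact permutation test gave p = 0.1, the smallest that 3 against 3 allows. Every transfected library held 5 counts or fewer, as did untreated replicates 1 and 2. The jetMESSENGER-only libraries overlapped both other groups (exact permutation p = 0.3 against the untreated group and 1 against the DPPA3 mRNA group).

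CDH1, the cadherin of epithelial adherens junctions, was detected in all libraries. It measured 45.1, 50.2 and 53.1 CPM in untreated replicates 1 to 3, 37.6, 58.6 and 53.3 CPM with jetMESSENGER only, and 51.6, 58.5 and 57.6 CPM with DPPA3 mRNA. These levels rest on 151 counts in jetMESSENGER-only replicate 1 and 280 to 685 in the other libraries. Its lowest library was again jetMESSENGER-only replicate 1, and the groups overlapped.

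**Figure D1:**
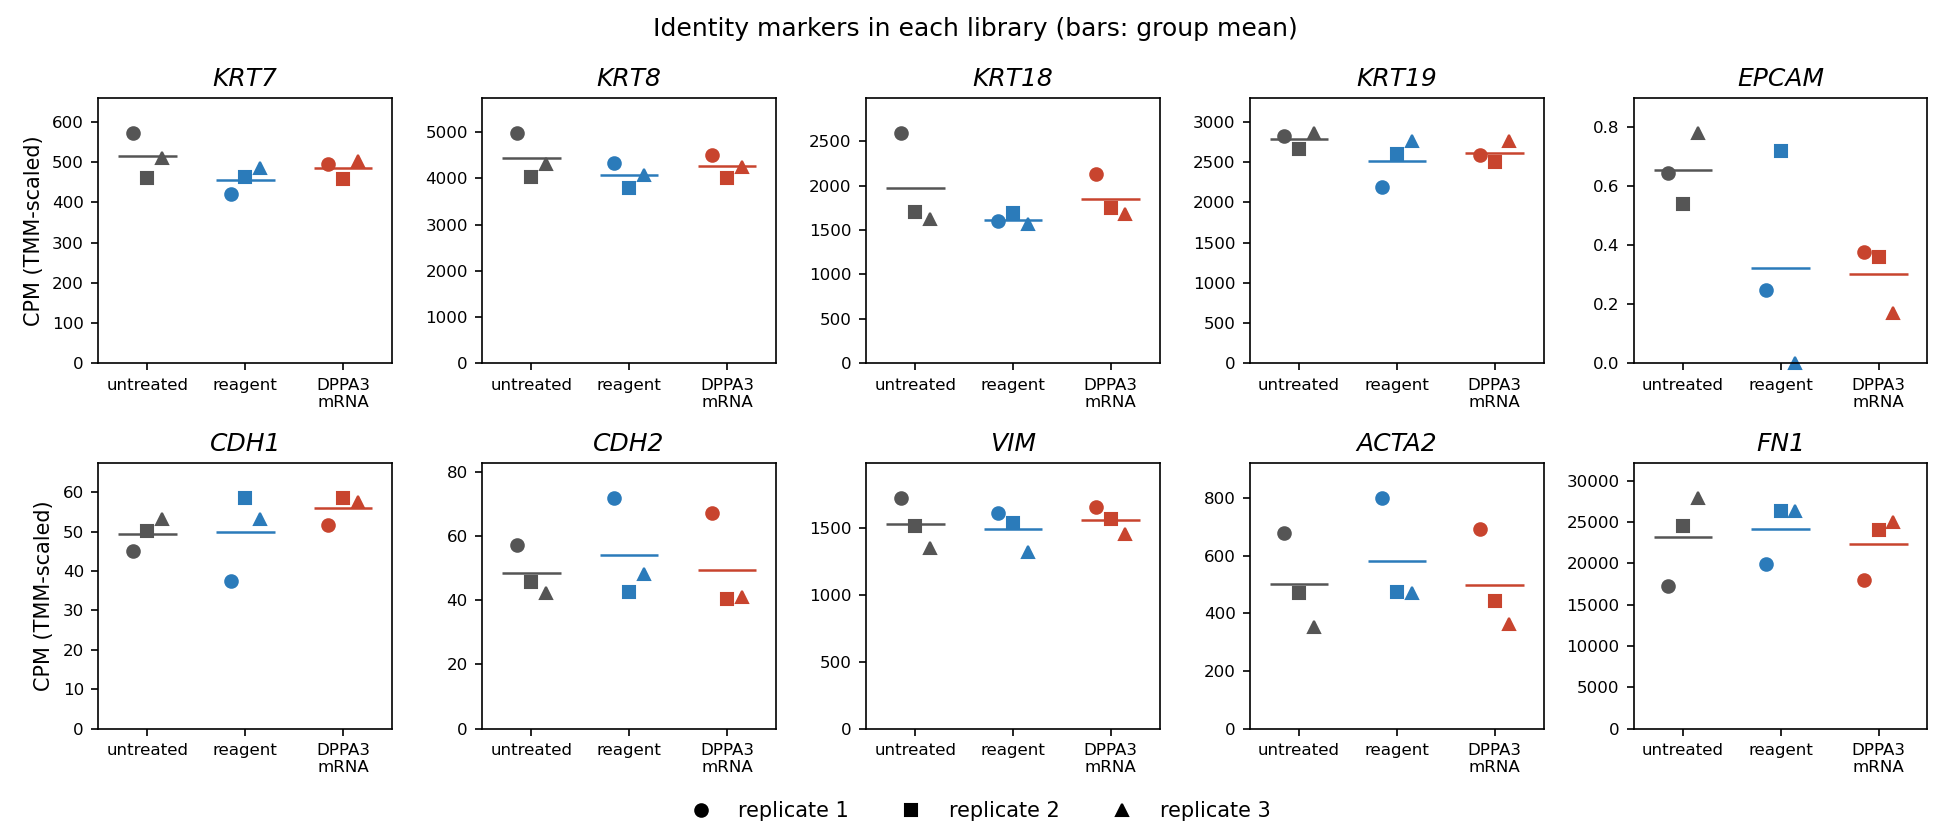
Level of each marker (CPM, TMM-scaled, axes from 0 and different for each gene) in the 9 libraries, grouped by treatment; the symbol gives the replicate number and the bar the mean of 3 libraries. The groups overlap for the 9 tested markers, EPCAM stays below 0.8 CPM, and the circles (replicate 1) are highest in every group for ACTA2 and CDH2 and lowest for FN1 and CDH1.

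All 4 mesenchymal markers were expressed beside the keratins. FN1, a matrix glycoprotein that cells bind through integrins, measured 17270, 24538 and 27930 CPM in untreated replicates 1 to 3. It measured 19924, 26394 and 26318 CPM with jetMESSENGER only and 18001, 23994 and 24994 CPM with DPPA3 mRNA. One transcript thus took between 1.48% (exact binomial 95% interval 1.47% to 1.49%) and 2.82% (2.81% to 2.83%) of all counts in a library. These intervals cover counting error only. Replicate 1 was the lowest library of each group.

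VIM, the intermediate filament protein of mesenchymal cells, measured 1722, 1513 and 1348 CPM in untreated replicates 1 to 3, 1606, 1533 and 1320 CPM with jetMESSENGER only, and 1651, 1567 and 1449 CPM with DPPA3 mRNA. Within a group its SD was 6.53% to 12.3% of the mean.

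ACTA2, the actin of smooth muscle and myofibroblasts, was the marker with the widest relative spread among those tested, with an SD of 32.5% to 34.3% of the mean in each group. It measured 678, 472 and 354 CPM in untreated replicates 1 to 3, 801, 476 and 470 CPM with jetMESSENGER only, and 692, 442 and 364 CPM with DPPA3 mRNA. The 3 libraries numbered 1 were the 3 highest of the 9. Actin genes are close copies of each other in their coding parts, so how counting shared their reads is uncertain. ACTG2, the other smooth muscle actin on the lists, measured 1.10 to 3.46 CPM over all libraries and was named after its values were seen. CDH2, the cadherin of mesenchymal and neural cells, measured 57.3, 45.6 and 42.3 CPM in untreated replicates 1 to 3, 71.9, 42.5 and 48.1 CPM with jetMESSENGER only, and 67.0, 40.3 and 40.9 CPM with DPPA3 mRNA. The libraries numbered 1 were again the 3 highest.

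The label of the cells was set against further marker lists, which hold 196 genes beside the 10 markers, 124 of them tested. Genes of epithelial junctions were detected in part. Of 17 tight junction genes, 9 were tested and 8 reached a mean of 5 CPM, while CLDN3, CLDN4, CLDN6, CLDN7, CLDN8, CLDN10, CLDN23 and MARVELD3 were too low to be tested. Among those tested, cingulin (CGN) measured 1033 ± 66.2 CPM, the scaffold TJP1 627 ± 62.1 CPM and claudin CLDN1 425 ± 58.0 CPM in untreated cells (SD, n = 3). Of the genes of desmosomes and adherens junctions, 14 of 17 were tested and 13 reached a mean of 5 CPM, among them afadin (AFDN, 634 ± 192 CPM) and plakoglobin (JUP, 263 ± 61.7 CPM; SD, n = 3). Several genes that define gland and surface epithelium were at or near 0. GRHL2, a transcription factor that maintains epithelial identity, had 0 counts in all 9 libraries, and the splicing regulator ESRP1 had 4 in all. FOXA2, the factor of endometrial glands, had 1 count in all, and the claudins CLDN3, CLDN4 and CLDN7 had 23, 52 and 20. CD24 had 6 and the uterine epithelial factor SOX17 had 14. These 8 genes were too low to be tested and were named after their values were seen. Of the 22 listed epithelial regulators and surface proteins, 12 were tested and 7 reached a mean of 5 CPM, among them the protease inhibitor SPINT2 (101 ± 1.71 CPM), the factor KLF5 (57.4 ± 14.7 CPM) and the sorting protein MAL2 (56.4 ± 23.4 CPM; SD, n = 3, untreated). ESRP2, the paralogue of ESRP1 with the same splicing role, was detected, at 11.8 ± 1.07 CPM in untreated cells, 8.26 ± 1.03 CPM with jetMESSENGER only and 11.3 ± 1.81 CPM with DPPA3 mRNA (SD, n = 3), and was not called in any comparison by edgeR.

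Among the 14 listed genes of the endometrial epithelium, 8 were tested. The estrogen receptor ESR1 measured 109 ± 20.2 CPM, SPP1, which encodes osteopontin, 93.2 ± 68.6 CPM, and the homeobox genes MSX1 and EMX2 50.7 ± 12.4 and 41.0 ± 7.15 CPM in untreated cells (SD, n = 3). PAX8, a factor of Müllerian epithelium, measured 9.76 ± 6.32 CPM (SD, n = 3) and was named after its values were seen. ESR1, MSX1 and EMX2 are not restricted to the epithelium of the uterus. Keratins outside the 4 simple ones were scarce. Of 21 listed, 4 were tested, 11 had at most 3 counts in every library, and KRT80 alone reached a mean of 5 CPM, at 32.3 ± 11.2 CPM in untreated cells (SD, n = 3).

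Stromal genes were detected in the same libraries. Of 23 listed fibroblast genes 22 were tested and 21 reached a mean of 5 CPM. COL1A2 measured 14165 ± 1516 CPM, COL1A1 13098 ± 5024 CPM, COL3A1 7920 ± 2021 CPM and SPARC, a collagen-binding matrix protein, 6835 ± 865 CPM in untreated cells (SD, n = 3). The summed level of this list was 43044 to 64438 CPM in untreated cells, 40227 to 50556 CPM with jetMESSENGER only and 41894 to 48276 CPM with DPPA3 mRNA. All 14 genes of the smooth muscle and myofibroblast list were tested and 11 reached a mean of 5 CPM, among them CALD1, TPM1, TAGLN and CCN2. CCN2 was counted under its older symbol. MYH11 of the same list measured 1.70 ± 0.21 CPM in untreated cells (SD, n = 3) and was named after its values were seen. CDH11, a cadherin of mesenchymal cells, measured 666 ± 57.1 CPM. Of 11 transcription factors of the epithelial-mesenchymal transition 9 were tested and 5 reached a mean of 5 CPM. Among these 5 were ZEB1 at 32.3 ± 2.85 CPM and TCF4 at 55.2 ± 11.3 CPM (SD, n = 3, untreated). SNAI3 and GSC had 0 counts in all libraries.

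Markers of mesothelium were detected as well. Of 6 listed, 5 were tested, and all 5 reached a mean of 5 CPM. LRRN4 measured 2200 ± 319 CPM, mesothelin (MSLN) 1168 ± 464 CPM, BNC1 667 ± 125 CPM and WT1 550 ± 156 CPM in untreated cells (SD, n = 3). WT1 is also made by uterine stroma, and LRRN4 and BNC1 occur in other tissues. CALB2, which encodes calretinin, was listed at 0 counts in all libraries. The summed level of this list was 4018 to 6319 CPM in untreated cells, 3828 to 3929 CPM with jetMESSENGER only and 3877 to 4395 CPM with DPPA3 mRNA. Endothelial and immune genes summed to 18.0 to 31.6 and 5.65 to 12.3 CPM, and PTPRC, which marks leukocytes, had 0 counts in all libraries. Libraries labelled as epithelial cells thus held keratin and part of the junction genes together with stromal and mesothelial markers. Of the epithelial genes, EPCAM, GRHL2, ESRP1 and FOXA2 were at or near 0, while ESRP2, KLF5, SPINT2 and PAX8 were detected. Of the fibroblast genes, TCF21 was near 0 and THY1 was low, while COL1A1, COL1A2, COL3A1 and SPARC were detected. Whether single cells carried both sets or the cultures were mixed was not tested, since bulk counts hold no such information.

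**Figure D2:**
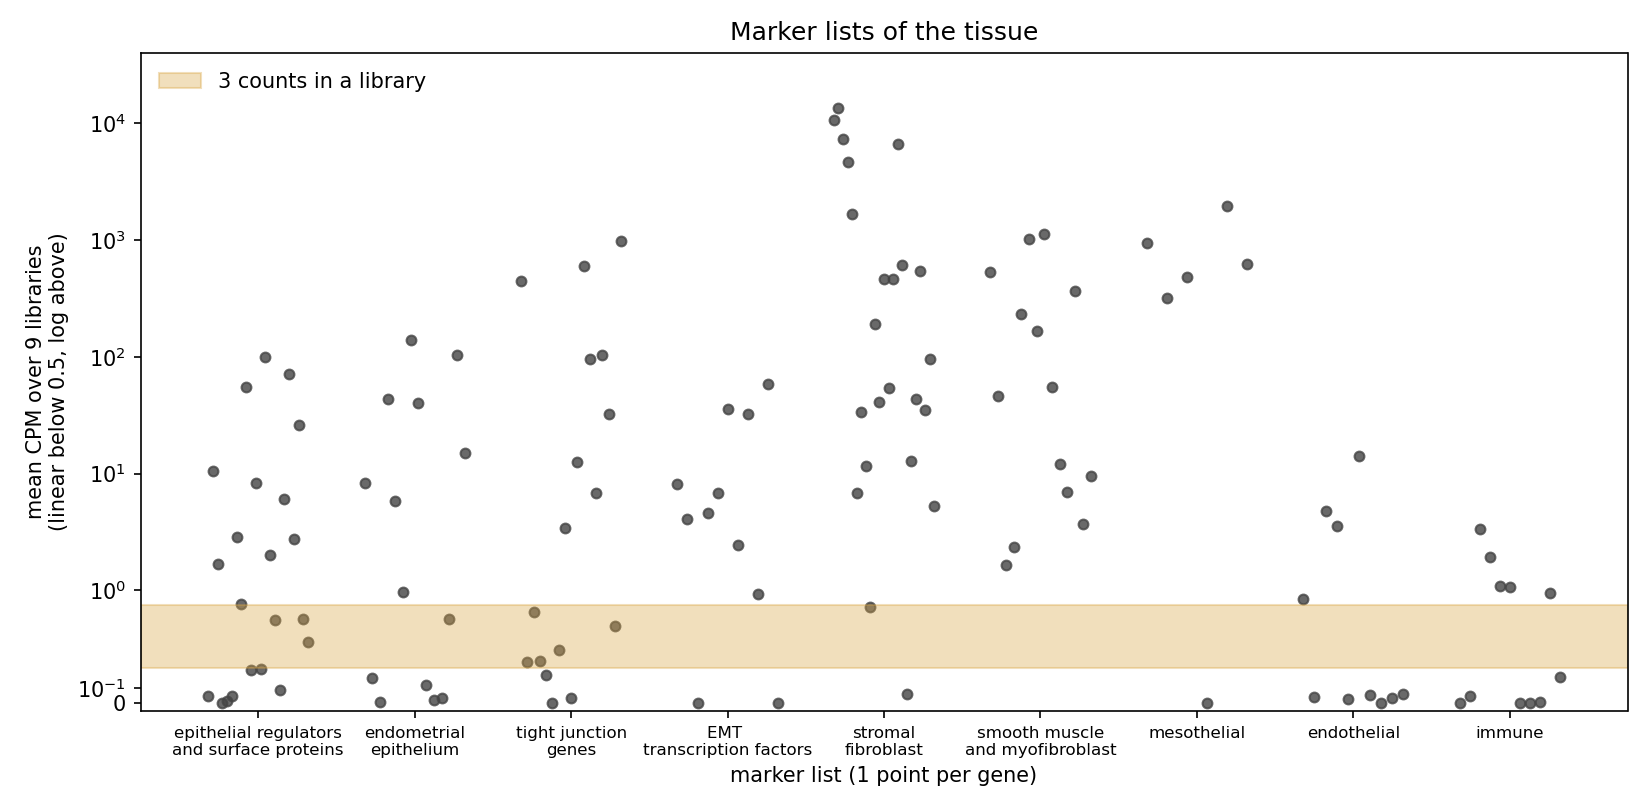
Mean CPM over the 9 libraries of each gene (1 point per gene, TMM-scaled, not corrected for length) in 9 marker lists; the axis is linear below 0.5 CPM and logarithmic above, and the band spans the CPM of 3 counts in the deepest and shallowest library. Of the 22 epithelial regulators and surface proteins 7 reach a mean of 5 CPM, as do 21 of the 23 fibroblast genes and 5 of the 6 mesothelial genes; levels are not to be ranked between genes.

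Setting DPPA3 mRNA against jetMESSENGER-only cells asks whether the mRNA shifted these markers where all cells received the reagent. By edgeR's quasi-likelihood test 0 of the 9 tested markers were called at an adjusted p under 0.05, against 0.00672% of the 14874 genes tested (1 gene, DPPA3). An unadjusted p under 0.05 was found for 0 of them, against 1.67% of all genes, and DESeq2 called 0. The 2 groups overlapped for all 9, while 4.91% of all genes tested had no overlap with DPPA3 mRNA higher and 3.99% with it lower. The 5 tested epithelial markers had log2 fold changes with a median of 0.09, and the 4 mesenchymal markers of -0.12, beside 0.0027 over all genes tested. The largest estimate on the epithelial side was KRT18, with means of 1854 ± 242 and 1616 ± 65.9 CPM (SD, n = 3). Its log2 fold change was 0.20 (SE 0.18, edgeR adjusted p 0.9998). On the mesenchymal side it was ACTA2, with means of 500 ± 171 and 582 ± 190 CPM (SD, n = 3). Its log2 fold change was -0.22 (SE 0.28, edgeR adjusted p 0.9998). Without jetMESSENGER-only replicate 1 the ACTA2 estimate turned to 0.08 and that of CDH2 from -0.12 to 0.12. With the replicate number added to the fit as a block, the smallest marker p was that of ACTA2 (edgeR p 0.062, adjusted p 0.9993). Its p in the fit by group alone was 0.45 by edgeR.

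For the 9 tested markers the fit by group bounds the size of a shift, while EPCAM has no such bound. The 95% interval of the ratio of DPPA3 mRNA to jetMESSENGER-only cells ran from 0.87 to 1.27 for KRT8, 0.88 to 1.49 for KRT18, 0.86 to 1.26 for KRT19 and 0.87 to 1.31 for KRT7. It ran from 0.85 to 1.47 for CDH1, 0.64 to 1.33 for CDH2, 0.85 to 1.29 for VIM, 0.56 to 1.31 for ACTA2 and 0.70 to 1.22 for FN1. In this fit, over all 9 libraries and without the block, a change of 2-fold in either direction lay outside all 9 intervals. These intervals rest on the spread of 9 libraries and leave smaller shifts unresolved. With single libraries left out the ACTA2 log2 fold change ran from -0.53 to 0.079, and the intervals of those refits are not given here.

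**Figure D3:**
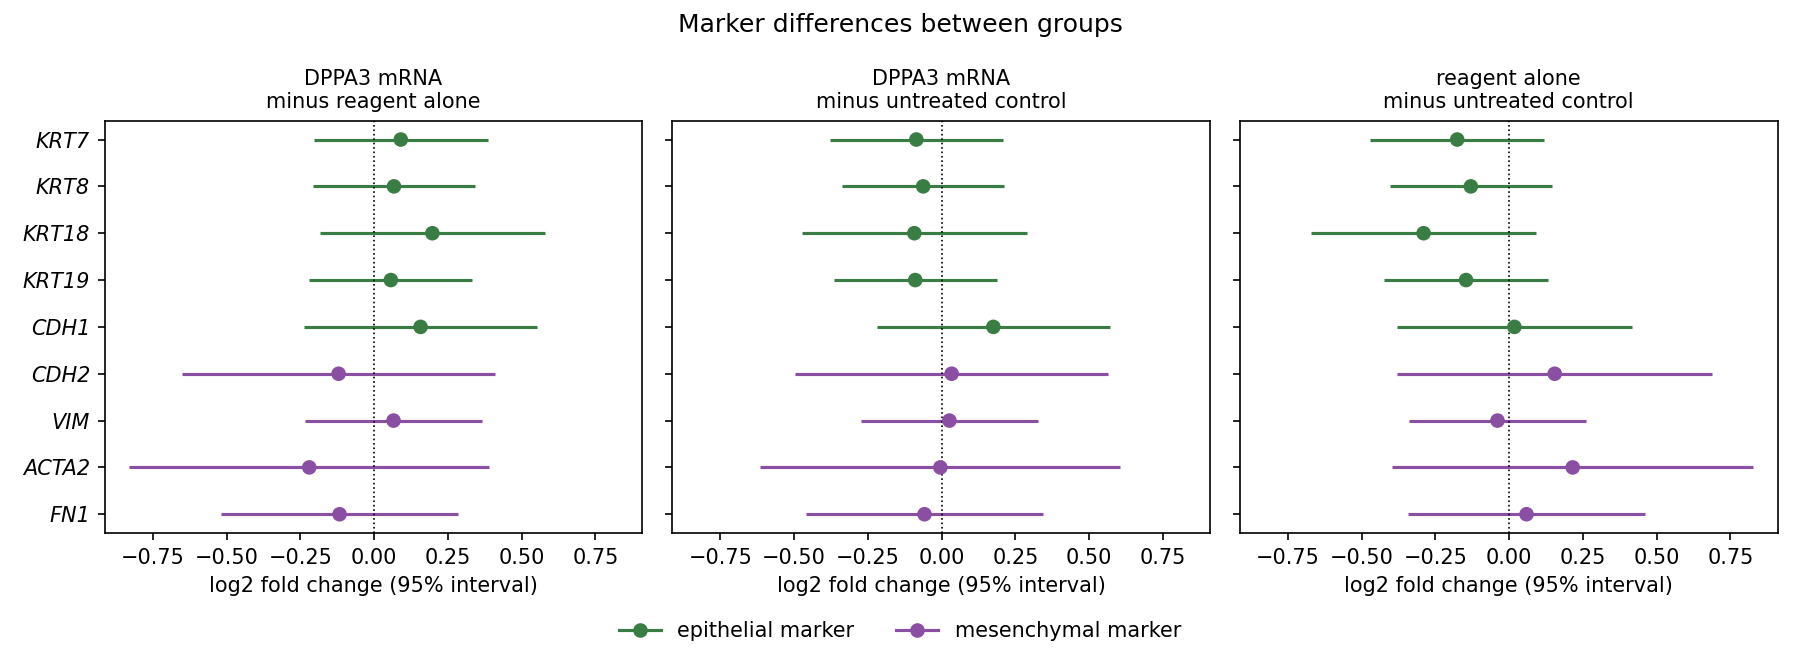
Log2 fold change (point) with its 95% interval (line) from edgeR's quasi-likelihood fit for the 9 tested markers in the 3 comparisons, epithelial markers in green and mesenchymal markers in purple. Every interval holds 0; ACTA2 has the widest, from -0.83 to 0.39 for DPPA3 mRNA against jetMESSENGER-only cells.

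Setting DPPA3 mRNA against untreated cells takes reagent and mRNA together. Again 0 of 9 markers were called by edgeR, against 0.0134% of all genes tested (2 genes), and 0 had an unadjusted p under 0.05, against 3.91%. The groups overlapped for all 9, while 4.24% of all genes had no overlap with DPPA3 mRNA higher and 3.86% with it lower. With the replicate number as a block, which pairs these 2 groups, 7 genes of the whole table were called in place of 2 and still 0 of the markers. The smallest marker p with the block was that of CDH1 (edgeR p 0.25, adjusted p 0.65). The values that follow are from the unpaired fit by group. The epithelial median was -0.09 and the mesenchymal median 0.01, beside 0.0017 over all genes. CDH1 had the smallest p, with means of 55.9 ± 3.77 and 49.5 ± 4.08 CPM (SD, n = 3). Its log2 fold change was 0.18 (SE 0.18, edgeR adjusted p 0.85). The estimate for VIM was 0.03 (95% interval -0.27 to 0.33) and that for ACTA2 was -0.0044 (95% interval -0.61 to 0.61), with means of 500 CPM with DPPA3 mRNA and 501 CPM in untreated cells.

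The effect of the reagent itself was read from jetMESSENGER-only against untreated cells, which shares the untreated libraries with the comparison above. Of the 9 markers 0 were called by edgeR, against 0% of all genes tested, and 0 had an unadjusted p under 0.05, against 10.2% (1516 genes). The groups overlapped for all 9, while 6.92% of all genes had no overlap with jetMESSENGER higher and 7.21% with it lower. DESeq2 called 2 genes of the whole table and 0 markers. The 4 keratins had log2 fold changes of -0.13 to -0.29, none of them called, and the epithelial median was -0.15, beside -0.0099 over all genes. KRT18 had the smallest p of the markers, with means of 1616 ± 65.9 and 1977 ± 539 CPM (SD, n = 3). Its log2 fold change was -0.29 (SE 0.18, edgeR adjusted p 0.49). Without untreated replicate 1, the library highest for KRT18, that estimate was -0.03. With the replicate block KRT18 again had the smallest marker p (edgeR p 0.066, adjusted p 0.28). The mesenchymal median was 0.11.

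Ratios within a library, in which depth cancels, are given as a description. CDH1 counts per CDH2 count were 0.79, 1.10 and 1.26 in untreated replicates 1 to 3, 0.52, 1.38 and 1.11 with jetMESSENGER only, and 0.77, 1.45 and 1.41 with DPPA3 mRNA. The groups overlapped, and replicate 1 was the lowest library of each. KRT18 counts per VIM count were 1.51, 1.13 and 1.21 in the untreated libraries, 0.99, 1.10 and 1.18 with jetMESSENGER only, and 1.29, 1.12 and 1.16 with DPPA3 mRNA, and also overlapped. The mean log2 CPM of the 5 epithelial markers minus that of the 4 mesenchymal markers was -0.07 ± 0.10 in untreated cells, -0.31 ± 0.28 with jetMESSENGER only and -0.09 ± 0.15 with DPPA3 mRNA (SD, n = 3). The lowest library was jetMESSENGER-only replicate 1, at -0.63.

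**Figure D4:**
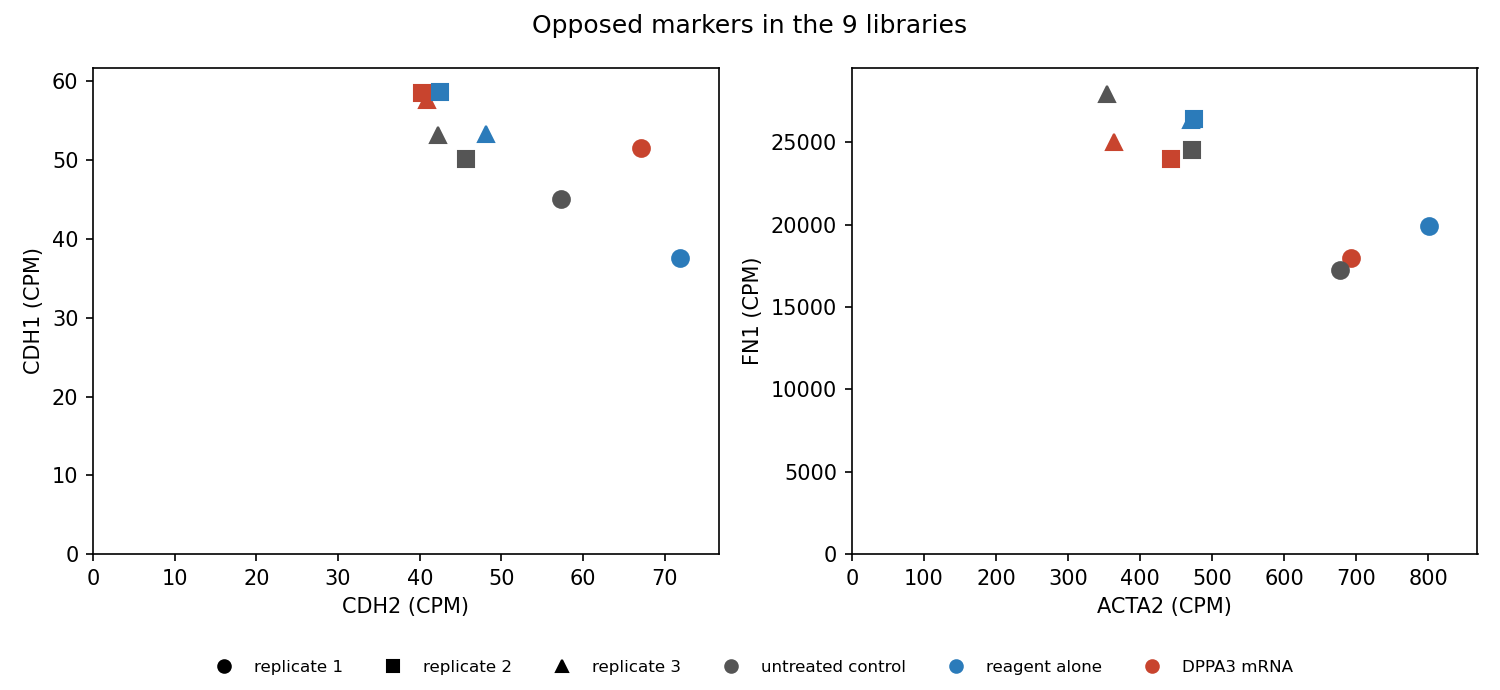
CPM of CDH1 against CDH2 (left) and of FN1 against ACTA2 (right) in each of the 9 libraries, with the colour giving the group and the symbol the replicate number. The 3 circles, the libraries numbered 1, lie to the right of the other 6 in both panels, at 57.3 to 71.9 CPM of CDH2 and 678 to 801 CPM of ACTA2, while colours are mixed.

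Several markers differed with the replicate number, in the same direction in every group. ACTA2 in replicate 1 lay above the mean of replicates 2 and 3 by 0.73, 0.76 and 0.79 on the log2 scale in untreated cells, jetMESSENGER-only and DPPA3 mRNA. CDH2 lay above it by 0.38, 0.67 and 0.72, and FN1 lay below it, at -0.60, -0.40 and -0.44. CDH1 also lay below it, at -0.20, -0.57 and -0.17. The median size of this difference over all tested genes was 0.54, 0.27 and 0.25. Replicate 1 was the highest library of all 3 groups for 4 of the 9 tested markers (KRT8, CDH2, VIM and ACTA2), against 10.9% of all genes tested. It was the lowest of all 3 groups for 2 (CDH1 and FN1), against 11.4%. On raw library totals the first pattern held for CDH2 and ACTA2 and no longer for KRT8 and VIM, against 7.86% of all genes tested. The second held for CDH1 and FN1 as before, against 13.5%. Mesenchymal markers thus did not move as 1 set, since FN1 was low where ACTA2 and CDH2 were high.

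Replicate 1 had the fewest counts of the untreated and the jetMESSENGER-only groups and the most of the DPPA3 mRNA group. The part of depth in these differences was not tested. The labels do not say what the replicate number stands for, so its part in these differences was not tested. From the wider lists, TAGLN and CCN2 were highest in replicate 1 of every group. TAGLN, an actin-binding protein of smooth muscle, measured 723, 613 and 668 CPM in replicate 1 of untreated, jetMESSENGER-only and DPPA3 mRNA, and 364 to 534 CPM in the other 6 libraries. CCN2, a matricellular gene, measured 607, 453 and 528 CPM in replicate 1 and 237 to 337 CPM in the others. The keratins KRT17 and KRT15, both low, were opposed: KRT17 measured 6.28 to 7.46 CPM in replicate 1 and at most 4.0 CPM elsewhere, and KRT15 0.83 to 2.09 CPM in replicate 1 and 2.98 to 8.20 CPM elsewhere. POSTN, the matrix protein periostin, was lowest in replicate 1 of each group, at 154, 384 and 297 CPM against 440 to 656 CPM. These 5 genes were picked for this pattern after their values were seen, and other genes of the same lists went otherwise. CALD1, listed with TAGLN and CCN2, was highest in replicate 2 of every group, at 1168, 1445 and 1289 CPM. COL3A1 and SPARC, listed with POSTN, were highest in replicate 1 of every group. The share of each list with either pattern was not counted.

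**Figure D5:**
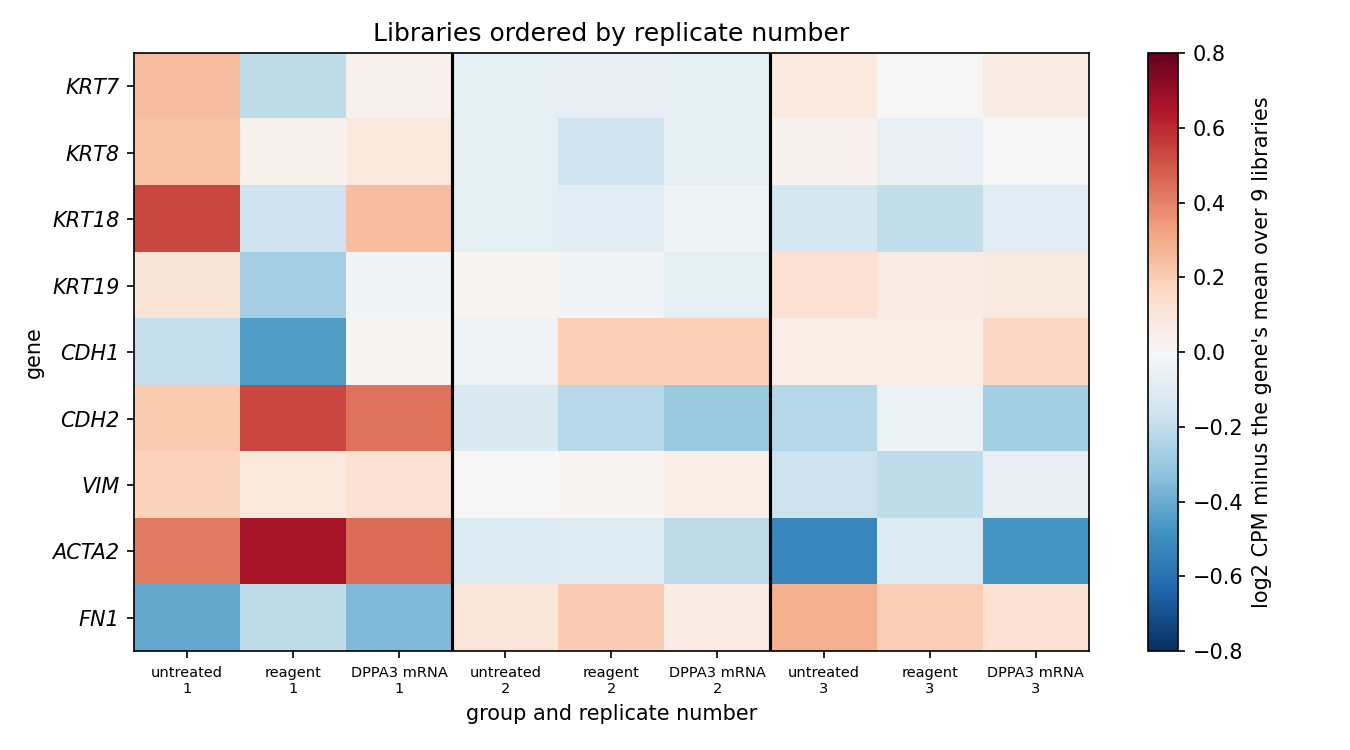
Log2 CPM of the 9 tested markers minus each gene's mean over the 9 libraries, with libraries ordered by replicate number and, within a number, untreated, jetMESSENGER-only and DPPA3 mRNA. In the 3 columns numbered 1, ACTA2 and CDH2 are above and FN1 below their means, in every group.

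In the wider lists 0 of the 124 tested genes were called in any comparison, by edgeR or by DESeq2. An unadjusted p under 0.05 was found by edgeR for 0 of them in DPPA3 mRNA against jetMESSENGER only, 3 in DPPA3 mRNA against untreated cells and 11 for the reagent itself. These shares were 0%, 2.42% and 8.87%, beside 1.67%, 3.91% and 10.2% of all genes tested. The 3 were CDH4, LDB3 and PECAM1. The 11 were CDH4, CDH17, CDH24, DSC2, SPP1, TWIST1, TWIST2, COL1A1, SMTN, MSLN and LRRN4. DSC2, a desmosomal cadherin, averaged 94.5 ± 20.6 CPM after jetMESSENGER and 62.9 ± 15.3 CPM without it, and TWIST2, a factor of mesenchymal identity, 4.20 ± 0.43 and 9.36 ± 4.45 CPM (SD, n = 3; edgeR adjusted p 0.47 for each). Neither gene stood for its list. For the reagent itself 5 of the 14 tested desmosome and adherens junction genes had a positive estimate, with a median of -0.07. Of the 9 tested factors of the epithelial-mesenchymal transition, 6 had a positive one. TWIST2 measured 14.5, 6.38 and 7.23 CPM in untreated replicates 1 to 3. The 9 factors had a median log2 fold change of 0.05 when DPPA3 mRNA was set against the reagent. It was -0.10 for DPPA3 mRNA against untreated cells and 0.06 for the reagent itself. The medians of the 22 tested fibroblast genes were -0.02 in all 3 comparisons, beside -0.0099 to 0.0027 over all genes. Several lists leaned one way in both comparisons with the untreated libraries, which they share. Medians with jetMESSENGER only and with DPPA3 mRNA were -0.26 and -0.12 for other intermediate filaments and -0.30 and -0.24 for other keratins. They were -0.26 and -0.14 for the endometrial epithelium, -0.16 and -0.13 for smooth muscle, but 0.03 and 0.15 for tight junctions. The share of positive estimates over all genes tested was not counted. The 12 tested epithelial regulators and surface proteins had a median of -0.20 with jetMESSENGER only and -0.25 with DPPA3 mRNA, and 1 and 3 of the 12 had a positive estimate. The 5 tested mesothelial genes had medians of -0.33 and -0.32, with 0 positive estimates in either. Untreated replicate 1 had the highest summed mesothelial level of the 9 libraries, 6319 CPM, and its part in these medians was not tested.

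The genes most like a marker in pattern were sought among 10437 other genes with a symbol and a mean of at least 5 CPM, by Pearson's r of log2 CPM over the 9 libraries. With so many candidates and so few libraries, of which those numbered 1 stand apart, the values only describe these libraries. For ACTA2 they were SETBP1, NNAT and PRKX (r of 0.97, 0.96 and 0.96), and for CDH2 ARHGAP31, DDIT3 and ACTA2 itself (0.96, 0.94 and 0.93). For FN1 they were DMKN, LRP2 and A2M (0.98, 0.97 and 0.97), for VIM RASL11B, NEDD9 and FMOD (0.98, 0.98 and 0.96), and for CDH1 DPYD, GARNL3 and KANK1 (0.95, 0.93 and 0.92). For KRT8 they were RBM10, PEX10 and MYOC (0.99, 0.98 and 0.98), for KRT18 ZNF787, ID4 and TINAGL1 (0.98 each), for KRT19 PRKDC, ADSSL1 and PDK2 (0.99, 0.99 and 0.98), and for KRT7 PRKCSH, CNTROB and MRPL14 (0.99, 0.98 and 0.98). Another keratin or junction marker was thus not among the 3 nearest genes of any epithelial marker.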

How the data were processed

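The authors deposited raw read counts per gene symbol for the 9 libraries. Trimmomatic, HISAT2, HTSeq and edgeR are the tools in the submitters' processing notes, without roles or versions. Neither genome build nor strand setting is given in the sources used here. No coordinates are printed. RNA was extracted with TRIzol and treated with DNase, and libraries were made with an IDT xGen kit, per the labels. In RefSeq annotation of ARS-UCD2.0, used for names and neighbours only, the span of CDH2 overlaps LOC101904912 and that of FN1 overlaps MIR2285L, and the other 8 markers overlap no gene. Processed copies of keratin genes may share reads with KRT8 and KRT18.

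Counts were filtered with filterByExpr (14874 genes left), scaled with TMM, and fitted over all 9 libraries in edgeR 4.0.16 (R 4.3.3; glmQLFit and glmQLFTest) by group alone. A gene was called where its p, adjusted by Benjamini-Hochberg across the tested genes, was under 0.05. The SE is the log2 fold change over the square root of F, and intervals use the moderated degrees of freedom. Log2 CPM used a prior count of 2. In simulated data 7 of 14357 unchanged genes were called for DPPA3 mRNA against jetMESSENGER-only. The counts were 6 of 14366 for DPPA3 mRNA against untreated and 12 of 14381 for jetMESSENGER-only against untreated. The simulated counts were independent and held no pattern with replicate number, so they do not give the rate of false calls in these libraries.

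The markers and lists were chosen with earlier results of these data known. Names were drawn from the 10 markers, from each list the up to 4 genes highest in untreated cells and the up to 2 with the smallest p per comparison, and the 3 genes most like each marker, not all of which are printed. Other names were chosen after their values were seen. Equal replicate numbers of the DPPA3 mRNA and untreated groups deviated together from their group means, with correlations of 0.34, 0.32 and 0.12 (all over 0.1). They were treated as pairs in the replicate block only, on the strength of these correlations and no label. The marker estimates, SEs, intervals and p-values are from the unpaired fit by group unless the block is named. Replicates differed by more than sampling noise (chi-square per degree of freedom at least 13.7). The largest values, 65.0 and 51.2, were those of untreated replicate 1 against untreated replicates 2 and 3, which gave 14.4 between them. The alternatives tried were scaling by DESeq2 size factors or raw totals, testing without a filter, DESeq2 1.42.0 in place of edgeR, a replicate block, and leaving out each library in turn.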

Additional observations from a re-analysis of the deposited data

How the results depend on the processing

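Over 324 refitted fold changes of the 9 tested markers 0 were called, and 40 changed sign, each from an estimate within 0.22 of 0. The 60 group means under other scalings all stayed within 1 SD. Leaving out the 3 libraries numbered 1 together, with or without the block, was chosen after seeing the data. Over the whole table, in the order DPPA3 mRNA against jetMESSENGER only, DPPA3 mRNA against untreated and jetMESSENGER only against untreated, the number of genes called was 66, 69 and 18 without a filter, 11, 12 and 2 with the DESeq2 Wald test, 8, 13 and 1 without the libraries numbered 1, and 33, 43 and 5 with the replicate block as well; the cause was not tested. The replicate block gave 2, 7 and 0 and changed no call of a marker. With each library left out in turn the counts ran from 1 to 20, from 1 to 26 and from 0 to 1, with 20 and 26 without DPPA3 mRNA replicate 1. For the block, equal numbers of the jetMESSENGER-only group correlated at 0.14, 0.12 and 0.086 with the DPPA3 mRNA group and at 0.15, 0.14 and 0.093 with the untreated group, not all over 0.1, although every library correlated best with those of its own number, which the labels do not explain.

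The log2 fold changes that turned sign were these. For DPPA3 mRNA against untreated cells ACTA2 became 0.0063 with no filter, and CDH2 -0.0016 with the replicate block. Without the libraries numbered 1, and with the block as well, KRT19 became -0.032 and -0.033 against jetMESSENGER-only, KRT18 0.047 and 0.047 and CDH2 -0.11 and -0.11 against untreated cells, and VIM 0.0060 and 0.0054 for jetMESSENGER-only against untreated cells. When single libraries were left out, DPPA3 mRNA against jetMESSENGER-only ranged from -0.034 to 0.13 for KRT19, -0.0012 to 0.29 for CDH1, -0.41 to 0.12 for CDH2, -0.012 to 0.12 for VIM, -0.53 to 0.079 for ACTA2 and -0.24 to 0.012 for FN1. DPPA3 mRNA against untreated cells ranged from -0.16 to 0.0042 for KRT7, -0.13 to 0.035 for KRT8, -0.21 to 0.16 for KRT18, -0.25 to 0.18 for CDH2, -0.055 to 0.13 for VIM, -0.31 to 0.28 for ACTA2 and -0.23 to 0.10 for FN1. In jetMESSENGER-only against untreated cells they ranged from -0.11 to 0.18 for CDH1, -0.089 to 0.30 for CDH2, -0.12 to 0.065 for VIM, -0.081 to 0.50 for ACTA2 and -0.10 to 0.21 for FN1. At 3890134 counts jetMESSENGER-only replicate 1 limits the low markers most, with 151 counts of CDH1 and 1 of EPCAM.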
